A study of Rattus norvegicus with 19 samples.

Results

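Voltage-gated calcium channels of the T11 dorsal root ganglion are described here through the 10 subunit genes Cacna1a, Cacna1b, Cacna1c, Cacna1h, Cacna2d1, Cacna2d2, Cacna2d3, Cacnb1, Cacnb3 and Cacnb4. They were taken by gene symbol: every probe set that the platform annotation gives to 1 of these symbols was used. This gave 17 of the 31042 probe sets tested, for 9 of the 14217 genes with a probe set of their own. Cacna1a had 5 probe sets, Cacna1b, Cacna1c, Cacna1h and Cacnb1 had 2 each, and Cacna2d1, Cacna2d3, Cacnb3 and Cacnb4 had 1 each. Cacna2d2 had no probe set under its symbol and was not analysed here.

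The samples came from adult female Sprague-Dawley rats. In 14 of them the dorsal and lateral cutaneous nerves of segments T9, T10, T12 and T13 were cut on 1 side, which leaves T11 as the spared nerve among denervated skin. This surgery is used to make T11 axons sprout into the neighbouring territory, and sprouting itself is not measured by the arrays. The T11 ganglion was taken 7 days after surgery in 7 rats and 14 days after surgery in another 7. The 5 control rats were naive, without surgery, so that the operation itself and the nerve transections cannot be told apart in these comparisons. Each array holds RNA of a single ganglion from 1 rat, amplified in 2 rounds, and the question of the series is which transcripts change in a ganglion whose intact axons are sprouting. All values are log2 expression after robust multi-array averaging (RMA), so a difference of 1 is a doubling.

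A voltage-gated calcium channel is built around an alpha1 subunit, which forms the pore and senses voltage. Cacna1a encodes the P/Q-type pore and Cacna1b the N-type pore, which admit the calcium that releases transmitter at central terminals of sensory neurons; Cacna1c encodes an L-type pore and Cacna1h the low-voltage T-type pore. The beta subunits bind the pore inside the cell and help it reach the membrane, and the extracellular alpha2delta subunits raise the number of channels at the membrane and at terminals. Alpha2delta-1, the product of Cacna2d1, is the binding site of gabapentin and pregabalin, and is known to rise in sensory ganglia after peripheral nerve injury.

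Values ran from 3.48 to 14.02 over all arrays and probe sets, and the correlation between any pair of arrays was between 0.987 and 0.997. The tissue label was checked on sensory neuron markers: 20 of 21 genes had a probe set, all 20 lay above the median of all probe sets, and their mean was 11.84 ± 0.03 (SD, n = 5) in naive, 11.85 ± 0.09 (n = 7) in day 7 and 11.85 ± 0.09 (n = 7) in day 14 ganglia. A list of 15 skeletal muscle markers stood apart on 3 arrays, at a mean of 9.64 on naive replicate 1, 9.26 on day 7 replicate 7 and 7.98 on day 14 replicate 2, against 7.15 or less on every other array. With limma, no probe set passed an adjusted p of 0.05 at day 7 against naive (0% of those tested, with 8.7% at an unadjusted p under 0.05), 43 passed at day 14 against naive (0.139%, with 19.7% unadjusted), none passed between day 14 and day 7 (0%, with 11.3% unadjusted), and 6 passed for both operated groups against naive (0.0193%, with 14.7% unadjusted).

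None of the 17 calcium channel probe sets passed in any of these 4 comparisons. At an unadjusted limma p under 0.05, 1 of them was found at day 7, at day 14 and for both operated groups, in each case Cacna2d1, and 3 between day 14 and day 7. The member with the largest difference was Cacna2d1. On the log2 scale its transcript averaged 0.63 ± 0.17 (SE) higher at day 7 and 0.65 ± 0.17 higher at day 14 than in naive ganglia, which is 1.54-fold (95% interval 1.20 to 1.98) and 1.57-fold (1.22 to 2.01). The 16 other probe sets differed from naive by between -0.14 and 0.07 at day 7 and between -0.17 and 0.16 at day 14.

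Cacna2d1 (probe set 1369649_at) was measured at 9.59, 9.65, 9.34, 9.31 and 9.85 in the 5 naive ganglia, a mean of 9.55 ± 0.23 (SD, n = 5). At day 7 it ranged from 9.71 through a median of 10.15 to 10.86, with a mean of 10.17 ± 0.41 (n = 7). At day 14 it ranged from 9.84 through a median of 10.08 to 10.67, with a mean of 10.20 ± 0.28 (n = 7). All 14 operated ganglia lay above the naive mean, and the groups still overlapped: 5 of 7 ganglia at day 7 and 6 of 7 at day 14 exceeded the highest naive ganglion. Over all probe sets, 0.19% had every day 7 array above every naive array and 1.07% had every day 14 array above them. No member was among these, Cacna2d1 included. How many probe sets had 5 or 6 of 7 arrays above every naive one, or all 14 above the naive mean, was not counted. The same holds for such partial counts of the other genes below.

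**Figure D1:**
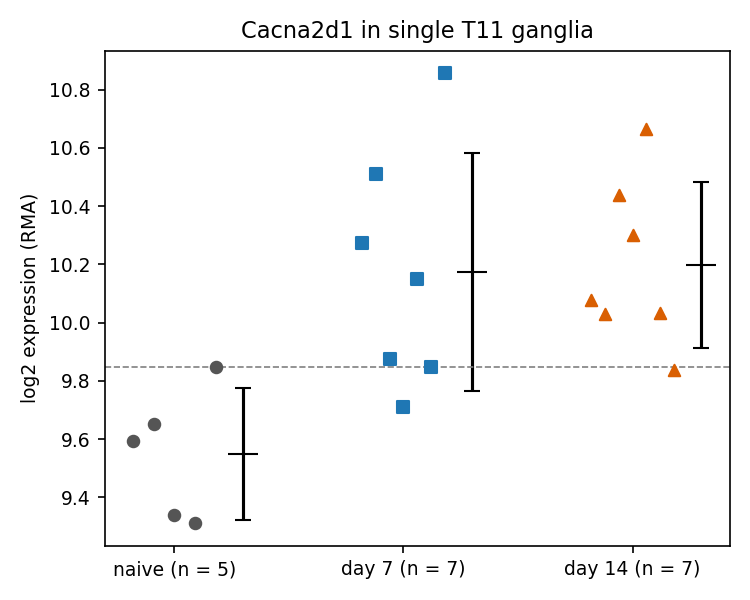
Cacna2d1 log2 expression (RMA, vertical axis) in each T11 ganglion of the naive, day 7 and day 14 groups; bars beside the points are mean and SD, and the dashed line is the highest naive ganglion. Operated ganglia centred on 10.17 and 10.20 against 9.55 in naive ones, and 5 of 7 and 6 of 7 lay above the line.

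The 2-sided exact permutation test of this single probe set gave p = 0.00758 for day 7 against naive, p = 0.00505 for day 14 against naive and p = 0.000688 for the 14 operated ganglia together. In the limma fit across all probe sets, after Benjamini-Hochberg adjustment over 31042 probe sets, p was 0.406, 0.0862 and 0.136. By unadjusted p Cacna2d1 stood 129th of all probe sets at day 7, 442nd at day 14 and 109th for both times together. Between day 14 and day 7 it differed by 0.02 ± 0.16 (SE; 95% interval -0.31 to 0.35; exact permutation p = 0.900), an interval that runs from 0.81-fold to 1.28-fold.

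The spread of Cacna2d1 between rats was large: its SD within groups was 0.32, against a median of 0.14 over all probe sets, and 4.19% of probe sets varied more. The 3' minus 5' signal of the Actb and Gapdh control transcripts is a measure of RNA and amplification quality. It averaged 3.42 ± 0.18 in naive (SD, n = 5), 3.27 ± 0.08 in day 7 and 3.26 ± 0.07 in day 14 ganglia (n = 7 each). Naive replicates 1, 2 and 5, at 3.26, 3.30 and 3.32, lay within the operated range of 3.16 to 3.38. Naive replicates 3 and 4, at 3.52 and 3.69, lay above it, and had the lowest Cacna2d1 values, 9.34 and 9.31. With this signal as a covariate the Cacna2d1 difference was 0.44 ± 0.18 at day 7 and 0.45 ± 0.19 at day 14 (SE; limma adjusted p = 0.999 and 0.411). The animal codes begin with 3 prefixes whose meaning the labels do not give, and prefix AI occurred only at day 14. Within prefix AJ the difference from 2 naive ganglia was 0.71 for 5 ganglia at day 7 and 0.90 for 2 at day 14; within AK it was 0.57 for 2 day 7 against 3 naive ganglia. Without the 3 arrays high in muscle transcripts the difference was 0.52 at day 7 and 0.69 at day 14 (adjusted p = 0.255 and 0.0708).

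Cacna2d3 encodes alpha2delta-3, which is needed for normal noxious heat responses in flies and mice. Its probe set (1390358_at) was narrow in naive ganglia, at 10.25, 10.14, 10.10, 10.17 and 10.14 (mean 10.16 ± 0.06 SD, n = 5). It was 10.17 ± 0.16 at day 7 (9.86, median 10.22, 10.36; n = 7) and 9.99 ± 0.23 at day 14 (9.50, median 10.06, 10.16; n = 7). Every day 14 ganglion lay below the naive mean and 4 of 7 lay below the lowest naive ganglion. The share of all probe sets with counts like these was not determined. The difference of -0.17 ± 0.10 (SE) did not pass the test (limma adjusted p = 0.332), and its unadjusted p was 0.0952, where 19.7% of all probe sets were under 0.05. Day 14 stood 0.18 below day 7 (SE 0.09, limma adjusted p = 0.447).

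The promoter table, which is drawn from RefSeq on build GRCr8, held 7 of the 10 genes. The windows of the 2 measured alpha2delta genes are shown because their averages lay on opposite sides of naive at day 14; each is the 250 bases before an annotated start, and capitals mark the GC box GGGCGG on either strand, the motif bound by Sp1. Cacna2d1 is read from chr4:20330148-20330397 on the minus strand, the first of its 3 listed starts, and Cacna2d3 from chr16:4918900-4919149 on the minus strand. The RefSeq spans of the 2 genes reach to 20330287 and 4919037, inside these windows. Part of each window therefore lies within the annotated gene and not upstream of it.
Cacna2d1: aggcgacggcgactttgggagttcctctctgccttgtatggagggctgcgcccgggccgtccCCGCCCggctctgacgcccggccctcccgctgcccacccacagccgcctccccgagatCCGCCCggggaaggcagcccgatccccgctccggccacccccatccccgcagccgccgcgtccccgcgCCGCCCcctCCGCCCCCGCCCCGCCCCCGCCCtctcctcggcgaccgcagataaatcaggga
Cacna2d3: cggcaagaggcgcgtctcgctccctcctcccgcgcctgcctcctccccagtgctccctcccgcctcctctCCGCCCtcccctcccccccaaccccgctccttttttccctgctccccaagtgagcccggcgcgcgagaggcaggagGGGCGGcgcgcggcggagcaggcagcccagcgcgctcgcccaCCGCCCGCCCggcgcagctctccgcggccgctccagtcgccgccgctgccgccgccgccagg

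Both windows are CpG-rich and held GC boxes, 7 in Cacna2d1 and 4 in Cacna2d3, where overlapping matches count separately. The windows of the other 2 listed Cacna2d1 starts held 3 each, so the order of the genes depends on the start chosen. At least 1 GC box is held by 30.5% of the 33465 promoters of this length. The printed windows had a GC content of 77.2% and 78.8%, against a median of 51.2% over all promoters. Neither holds the full CRE TGACGTCA (in 1.59% of promoters), the AP-1 motif TGACTCA (4.05%), CCAAT (34.0%) or TATAAA (12.9%), each searched on both strands. A match is a run of letters and not a measured site.

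Among the pore-forming subunits, the 11 probe sets of Cacna1a, Cacna1b, Cacna1c and Cacna1h stayed within 0.2 of naive on the log2 scale at both times, as did 28219 of all 31042 probe sets at day 7 and 26107 at day 14. Their median difference was -0.03 at day 7, with 3 higher and 8 lower, and 0.05 at day 14, with 8 higher and 3 lower. Over all probe sets the medians were 0.01 and 0.02.

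The N-type pore gene Cacna1b had its brighter probe set (1370444_at) at 10.47, 10.34, 10.31, 10.50 and 10.68 in naive ganglia, 10.51 ± 0.09 (SD, n = 7) at day 7 and 10.55 ± 0.11 (n = 7) at day 14. The naive ganglia spanned the whole range of the operated ones. Its differences were 0.05 at day 7 (95% interval -0.10 to 0.19) and 0.09 at day 14 (-0.05 to 0.24), so a change above 1.18-fold in either direction lies outside both intervals. The second probe set (1371175_a_at) averaged 6.67 ± 0.24 in naive, 6.59 ± 0.10 at day 7 and 6.60 ± 0.18 at day 14, and differed by -0.08 and -0.07.

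The P/Q-type gene Cacna1a had 5 probe sets that did not point the same way. Probe set 1395062_at read 7.62, 7.92, 7.53, 7.74 and 7.92 in naive ganglia and averaged 7.61 ± 0.14 (SD, n = 7) at day 7 and 7.61 ± 0.17 (n = 7) at day 14, which is -0.14 ± 0.09 and -0.13 ± 0.09 (SE) from naive. At each time 1 of 7 operated ganglia exceeded the naive mean. The other 4 probe sets were higher at day 14, by 0.04 to 0.13, with adjusted p of 0.310 or more. Of these, 1386939_a_at averaged 5.16 ± 0.07 in naive and 5.28 ± 0.12 at day 14, and 4 of 7 day 14 ganglia lay above every naive one (difference 0.12 ± 0.07 SE, limma adjusted p = 0.310). How often this occurs over all probe sets was not counted.

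Cacna1c, an L-type pore gene, had a probe set (1370452_at) at 8.94, 8.99, 9.09, 9.17 and 9.04 in naive ganglia. It spread over 8.75 to 9.29 at day 7 (mean 9.02 ± 0.21 SD, n = 7) and 8.99 to 9.41 at day 14 (9.21 ± 0.17, n = 7), where 4 of 7 ganglia lay above every naive one. The share of all probe sets with such a count was not determined. The difference at day 14 was 0.16 ± 0.10 (SE; limma adjusted p = 0.352). The dimmer probe set (1370451_a_at) differed by 0.01 at day 7 and 0.05 at day 14.

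The T-type gene Cacna1h varied most among the pore genes. Its probe set 1368398_at read 6.17, 7.23, 6.47, 7.05 and 6.80 in naive ganglia, a mean of 6.75 ± 0.43 (SD, n = 5), and 6.62 ± 0.22 and 6.69 ± 0.20 (n = 7 each) at the later times. No operated ganglion lay outside the naive range. The differences of -0.12 and -0.06 had 95% intervals of -0.44 to 0.19 and -0.37 to 0.26, which do not hold a rise of the size measured for Cacna2d1. The second probe set (1379197_at) differed by -0.03 and 0.03.

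**Figure D2:**
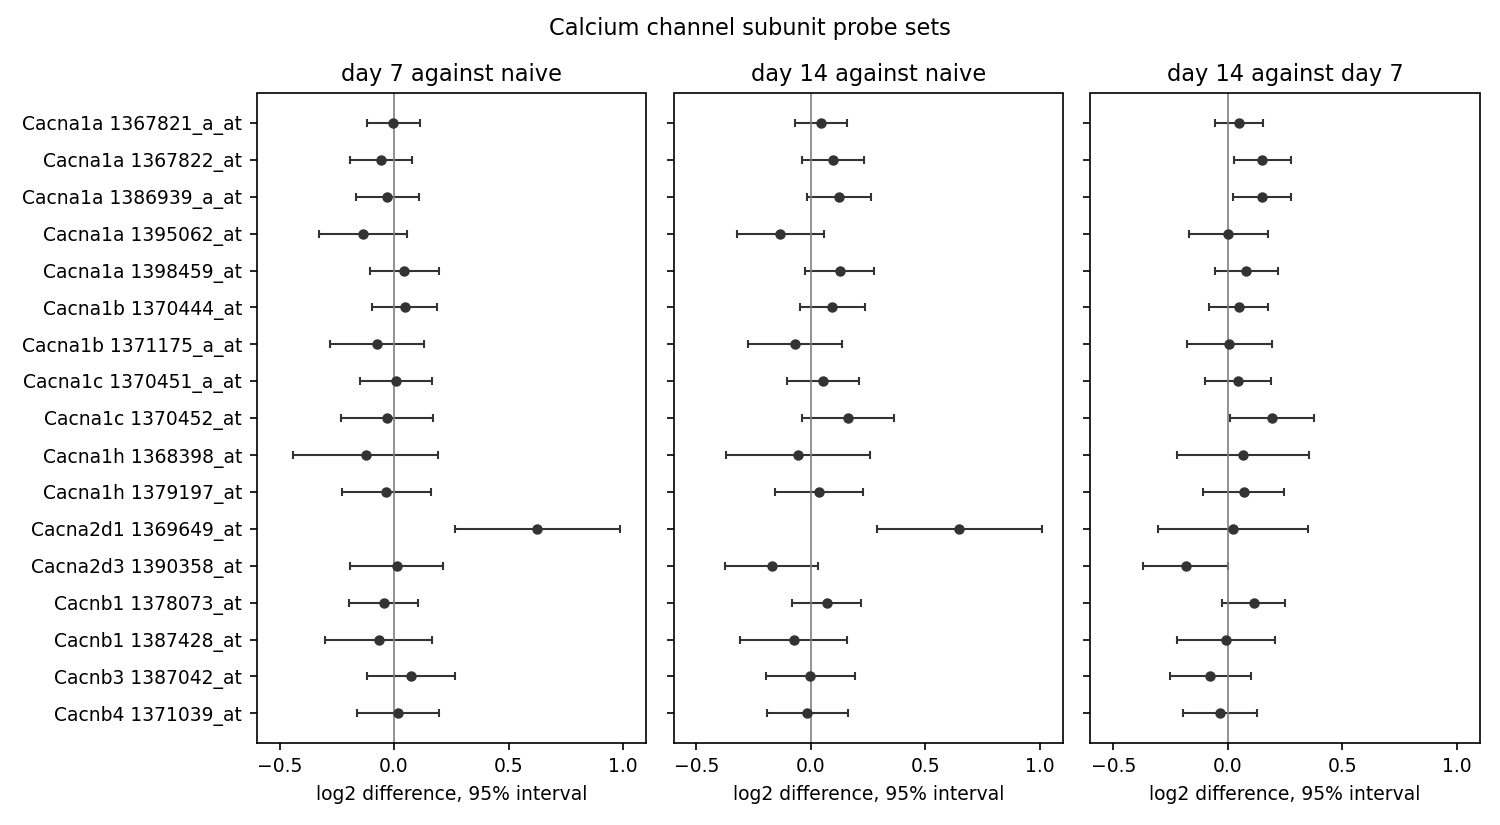
Log2 difference and 95% interval (limma, horizontal axis) of the 17 calcium channel probe sets in 3 comparisons, with 5 naive, 7 day 7 and 7 day 14 ganglia. The intervals of Cacna2d1, 0.27 to 0.99 at day 7 and 0.29 to 1.01 at day 14, lie above 0 and overlap the upper ends of other intervals, which reach 0.27 and 0.36, and no probe set passed an adjusted p of 0.05.

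The beta subunit genes differed little from naive. Cacnb3, a beta subunit of N-type channels in neurons, read 9.43, 9.33, 9.29, 9.39 and 9.17 in naive ganglia, 9.40 ± 0.10 (SD, n = 7) at day 7 and 9.32 ± 0.24 (n = 7) at day 14. Its differences were 0.07 (95% interval -0.12 to 0.27) and -0.00 (-0.20 to 0.19); the day 14 spread came with 2 ganglia at 8.96 and 9.03 and the other 5 between 9.32 and 9.53. Cacnb1, the beta subunit of the skeletal muscle channel that is also made in neurons, had a probe set (1378073_at) at 7.30 ± 0.05 in naive, 7.26 ± 0.08 at day 7 and 7.37 ± 0.18 at day 14, and another (1387428_at) at 8.35 ± 0.27, 8.29 ± 0.11 and 8.28 ± 0.23. At day 14 the first differed by 0.07 and the second by -0.08. Cacnb4, a beta subunit abundant in brain, averaged 5.17 ± 0.21, 5.19 ± 0.17 and 5.16 ± 0.05, below the median of all probe sets.

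Between the 2 operated times, all 11 probe sets of the pore genes averaged higher at day 14 than at day 7, as did 17063 of all 31042 probe sets. Their differences ran from 0.00 to 0.19 with a median of 0.07, beside a median of 0.01 over all probe sets. Probe sets of 1 gene share their transcript, and the brightest of Cacna1a, 1395062_at, differed by 0.00. An unadjusted limma p under 0.05 was reached by 3 of the 17 members: Cacna1a 1367822_at (0.15 ± 0.06 SE), Cacna1a 1386939_a_at (0.15 ± 0.06) and Cacna1c 1370452_at (0.19 ± 0.09). Their adjusted p was 0.374, 0.380 and 0.424, and the background of unadjusted calls in this comparison was the 11.3% given above. For the first of them 5 of 7 day 14 ganglia exceeded every day 7 ganglion. Both Cacna1a probe sets were dim, at means of 4.55 and 5.20 over all arrays, below the median of 6.72 of all probe sets.

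**Figure D3:**
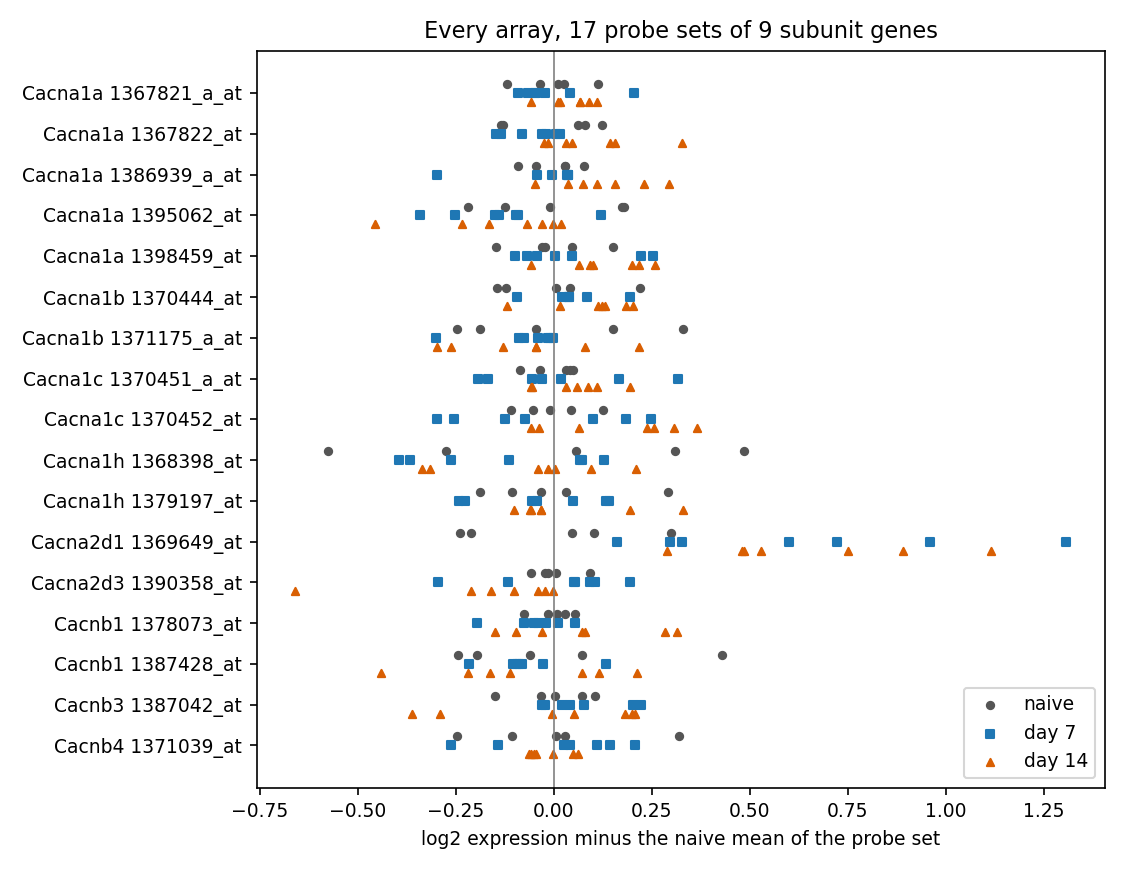
Log2 expression minus the naive mean of the probe set (horizontal axis) for every array and each of the 17 probe sets; circles are naive, squares day 7 and triangles day 14 ganglia. Only in the row of Cacna2d1 do all 14 operated ganglia lie right of 0, and the widest naive spread is that of Cacna1h 1368398_at.

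The operated rats differed from each other in Atf3, a transcription factor made by sensory neurons whose axons were injured. Atf3 (1369268_at) was 8.16 ± 0.18 (SD, n = 5) in naive ganglia and ran from 7.28 to 11.63 in operated ones, where 5 of 14 stayed at or below the highest naive value of 8.44. The other 9 lay above it, though T11 was the spared nerve, and the cause was not tested. No gap between neighbouring operated values exceeded 0.87. Cacna2d1 was high where Atf3 was high: over the 14 operated ganglia Pearson's r was 0.78 (permutation p = 0.00105) and Spearman's rho was 0.83 (permutation p = 0.00037). Both values of a point come from the same array and share its normalisation. Without the 2 ganglia farthest from the median of Atf3, r was 0.74 over 12, and without the operated arrays high in muscle transcripts it was 0.85 over 12. Within day 7 r was 0.78 (exact permutation p = 0.0413, n = 7), within day 14 it was 0.87 (exact permutation p = 0.0127, n = 7), and within the 7 operated ganglia of prefix AJ it was 0.78 (exact permutation p = 0.0363). Over all 19 ganglia, taken as deviations from their group means, r was 0.75 (permutation p = 0.00021). Across these 6 related settings, which share arrays, the largest Benjamini-Hochberg adjusted p was 0.0413. Atf3 was taken for this comparison with its spread between operated rats already known. These p values concern a single pair of genes and are not adjusted over all probe sets.

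The 5 operated ganglia with Atf3 at or below the highest naive value still differed in Cacna2d1. With Atf3 at 7.28, 7.88 and 7.95 on day 7 replicates 4, 5 and 3, Cacna2d1 was 9.71, 10.15 and 9.88. With Atf3 at 8.12 and 8.33 on day 14 replicates 7 and 2, it was 9.84 and 10.03. Of these 5 ganglia, 3 lay above the highest naive Cacna2d1 value of 9.85 and the other 2 inside the naive range.

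**Figure D4:**
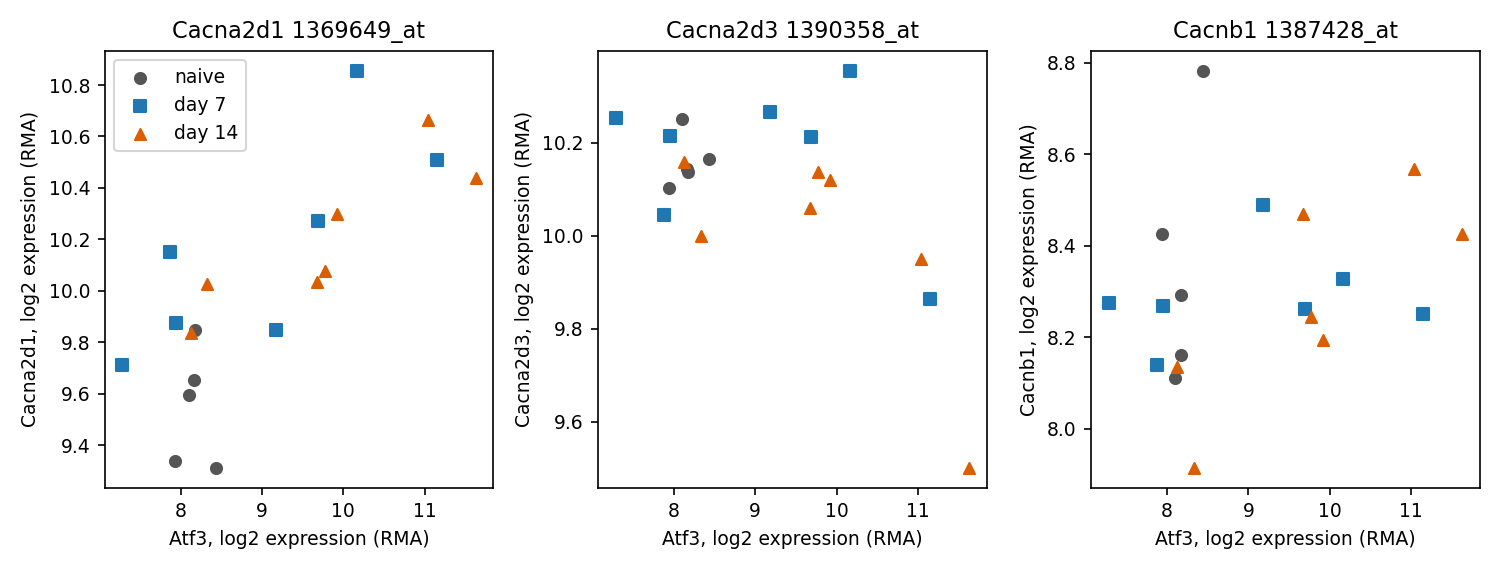
Log2 expression (RMA) of Cacna2d1, Cacna2d3 and Cacnb1 probe set 1387428_at (vertical axes) against Atf3 (horizontal axes) in each of the 19 ganglia, by group. Cacna2d1 goes up with Atf3 within both operated groups (r = 0.78 and 0.87), and Cacna2d3 is lowest, at 9.50, in the ganglion with the highest Atf3 of 11.63.

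A limma fit of the slope on Atf3 across all probe sets, over the 14 operated ganglia with day as a term, was chosen after the data were seen. It gave Cacna2d1 a slope of 0.21 ± 0.04 (SE) log2 units per log2 unit of Atf3, 77th of 31041 probe sets by p (adjusted p = 0.0605); 67 probe sets passed (0.216%) and 7.31% had an unadjusted p under 0.05. With the animal code prefix as a further term the slope was 0.26 ± 0.04 (adjusted p = 0.0386). Of the 17 members, 9 had a positive and 8 a negative slope. Besides Cacna2d1 an unadjusted p under 0.05 was reached by Cacna2d3 (-0.08 ± 0.04, adjusted p = 0.656) and Cacnb1 1387428_at (0.07 ± 0.03, adjusted p = 0.625). Without day 14 replicate 3, which had the highest Atf3, the Cacna2d3 slope was -0.04 (adjusted p = 0.940), that of Cacnb1 was 0.07 (adjusted p = 0.819) and that of Cacna2d1 was 0.23 (adjusted p = 0.120).

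The genes whose pattern was most like Cacna2d1, by Pearson's r over 19 ganglia on deviations from the group means, were Dapk3 (0.87), Ap1s1 (0.86), Spp1 (0.84), Lcp1 (0.84) and Dlgap4 (0.84). Spp1, which encodes osteopontin, averaged 0.77 above naive at day 14 (limma adjusted p = 0.0726), while Dlgap4 averaged 0.21 below it (adjusted p = 0.206). For Cacna1a the brightest probe set, 1395062_at, stood for the gene. It was not among the Cacna1a probe sets with an unadjusted limma p under 0.05 between day 14 and day 7. The genes most like it were Kif26b (0.83), Sptssb (0.83), Slc24a2 (0.80), Iars1 (0.78) and Ccnt2 (0.77). For Cacna1c 1370452_at they were Gpr146 (0.83), Spry1 (0.83), Itgb5 (0.82), Gdf10 (0.82) and Resf1 (0.82). These are the highest of many correlations and are given as a description.

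Another list held 16 genes that carry the names of calcium channel subunits, which does not make each of them a part of these channels. Of these, 15 had a probe set, and 19 of their 21 probe sets lay below the median of all probe sets. Those above it belong to Cacng2, the AMPA receptor protein stargazin. By the probe set of highest mean for each gene, 13 of 15 averaged above naive at each time, and none passed the adjusted threshold. Their median was 0.03 at day 7 and 0.10 at day 14, beside 0.01 and 0.02 over all probe sets. Of all 31042 probe sets, 16454 averaged above naive at day 7 and 17519 at day 14. At an unadjusted limma p under 0.05, 2 of the 15 were above and 1 below naive at day 7, and 1 was above naive at day 14. The share of all probe sets with such a p was 8.7% at day 7 and 19.7% at day 14. Cacng3 averaged 0.30 ± 0.11 (SE) above naive at day 7 (adjusted p = 0.455) and 0.14 ± 0.11 at day 14. Cacng2 1375735_at averaged 0.19 ± 0.06 above naive at day 14 (adjusted p = 0.129). Cacng8 was 0.17 below naive at day 7 and 0.04 above it at day 14, Cacng4 was 0.13 above naive at day 14, and the 3 probe sets of Cacnb2 lay between 0.06 and 0.13 above naive at day 14.

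The other pore genes were dim. Cacna1i (1369211_at), a T-type pore, averaged 5.29 ± 0.13 in naive (SD, n = 5), 5.40 ± 0.11 at day 7 and 5.47 ± 0.08 at day 14 (n = 7 each), 0.18 ± 0.07 (SE) above naive at day 14 (adjusted p = 0.153). Its other probe set (1370641_s_at) differed from naive by -0.04 at day 7 and 0.13 at day 14. Cacna1g, also T-type, averaged 5.46, 5.53 and 5.58 in the 3 groups. The L-type genes Cacna1d (1370640_a_at) and Cacna1f, the latter a retinal channel, averaged 5.53, 5.55 and 5.67, and 5.33, 5.38 and 5.43. At day 14 the other Cacna1d probe sets differed from naive by -0.03 (1369086_a_at) and 0.11 (1370637_at). Cacna1e, the R-type pore, averaged 5.97, 5.90 and 5.93.

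Cacna1s, the pore of the skeletal muscle channel, averaged 4.96, 4.98 and 4.93 in the 3 groups. Its highest values were 5.42 on day 7 replicate 7 and 5.25 on naive replicate 1, arrays that were also the highest in muscle transcripts. A limma fit on the mean of the muscle markers without Pvalb, with group as a term, was also chosen after the data were seen. Over 19 arrays the slope of Cacna1s in this fit was 0.12 ± 0.03 (SE, adjusted p = 0.0983). That of Cacng1, the gamma subunit of the same channel, was 0.06 ± 0.03 (adjusted p = 0.577). None of the 17 members had an unadjusted p under 0.05 in this fit, where 7.9% of all probe sets did; the slope of Cacna2d1 was 0.08 ± 0.06 (adjusted p = 0.814).

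Proteins that regulate these channels or hold them at release sites were taken as a list of 40 genes, of which 36 had a probe set. None passed the adjusted threshold. At day 7, 19 averaged above and 17 below naive (median 0.01), with 0 above and 1 below at an unadjusted limma p under 0.05. At day 14, 17 averaged above and 19 below (median -0.00), with 4 above and 4 below at an unadjusted p under 0.05. Over all probe sets, 8.7% at day 7 and 19.7% at day 14 had such a p. Thbs4 encodes thrombospondin-4, a secreted protein known as a ligand of alpha2delta-1. It read 10.64, 10.11, 10.43, 10.21 and 9.36 in naive ganglia, 10.46 ± 0.27 (SD, n = 7) at day 7 and 10.75 ± 0.21 (n = 7) at day 14. At day 14 it averaged 0.60 ± 0.17 (SE) above naive (limma adjusted p = 0.0973). The naive value of 9.36 lay well below the other 4, and 5 of 7 day 14 ganglia exceeded the highest naive one. Stac, an adaptor that binds L-type channels, ran from 10.96 to 11.24 in naive ganglia and 10.66 to 10.90 at day 14, where all 7 lay below every naive one, a difference of -0.25 ± 0.07 (adjusted p = 0.0820); 0.751% of all probe sets had every day 14 array below every naive array. Cbarp, an inhibitor of calcium channel activity, averaged 0.22 ± 0.06 above naive at day 14 by 1 probe set (1395401_at, adjusted p = 0.0933), while its other 3 lay between -0.15 and 0.16.

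Probe sets of the same gene also disagreed elsewhere in this list. Gabbr1, a subunit of the GABA-B receptor that inhibits N-type channels, was 0.38 below naive at day 14 by probe set 1375720_at (adjusted p = 0.106), while its other 4 lay between -0.04 and 0.13. Camk2a was 0.40 below naive at day 7 by 1381637_at, its other 3 between -0.21 and 0.01. Gnb1, a G protein beta subunit, was 0.46 above naive at day 7 by 1375705_at, its other 2 between -0.10 and 0.11. Rimbp2, which links channels to release sites, was 0.18 below naive at day 7 by 1395991_at, its other 3 between 0.00 and 0.15. The small GTPases that restrain these channels were measured between day 14 and day 7 at 0.28 for Rem1 (1396158_at) and -0.30 for Rem2 (1374035_at), with adjusted p of 0.290 and 0.320. For these genes the other probe set went the same way, at 0.18 for Rem1 and -0.09 for Rem2.

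Of 29 genes for calcium clearance, buffering and stores, 28 had a probe set and none passed; 12 averaged above and 16 below naive at each time, with medians of -0.02 and -0.05. At an unadjusted limma p under 0.05, 0 were above and 5 below naive at day 7, and 2 above and 4 below at day 14. The share of all probe sets with such a p was 8.7% and 19.7%. Mcu, the pore of the mitochondrial calcium uniporter, read 9.97, 10.23, 10.02, 10.22 and 9.99 in naive ganglia and 9.42 to 9.91 at day 14 by probe set 1378987_at. All 7 day 14 ganglia lay below every naive one by this probe set, as was so for 0.751% of all probe sets. The difference was -0.31 ± 0.08 (SE, adjusted p = 0.0780), while the other 2 Mcu probe sets lay at -0.07 and -0.00. Orai2, a store-operated channel, was 0.28 below naive at day 7 and 0.30 below at day 14 by 1377955_at (adjusted p = 0.480 and 0.145), while its other probe set lay at -0.07 and 0.08. Calb1, the calcium buffer calbindin, was 0.34 ± 0.14 below naive at day 7 (adjusted p = 0.521) and 0.05 below at day 14. Itpr2, an inositol trisphosphate receptor, was 0.21 ± 0.06 above naive at day 14 (1369676_at, adjusted p = 0.0958) and its other probe set 0.10 above.

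The nerve injury genes, 16 with Atf3 among them, averaged above naive in 15 of 16 at both times, with a median of 0.39 at day 7 and 0.57 at day 14. Of all 31042 probe sets, 16454 averaged above naive at day 7 and 17519 at day 14. None of the 16 passed the adjusted limma threshold, and 6 at day 7 and 11 at day 14 had an unadjusted p under 0.05, beside 8.7% and 19.7% of all probe sets. No gene on the lists of markers of other cells passed the adjusted limma threshold in any comparison. The myelinating Schwann cell list averaged 10.94 ± 0.16 (SD, n = 5) in naive, 10.65 ± 0.27 (n = 7) at day 7 and 10.96 ± 0.19 (n = 7) at day 14. All 8 measured genes averaged below naive at day 7, 3 of them at an unadjusted limma p under 0.05. Of all 31042 probe sets, 14588 averaged below naive at day 7, and 8.7% had such a p in either direction. The macrophage list averaged 7.92 ± 0.13, 7.87 ± 0.37 and 8.13 ± 0.25, satellite glia 10.43 ± 0.10, 10.45 ± 0.07 and 10.55 ± 0.10, vascular and fibroblast genes 9.26 ± 0.14, 9.21 ± 0.24 and 9.31 ± 0.11, and central nervous system genes 5.60 ± 0.05, 5.60 ± 0.05 and 5.69 ± 0.05. In whole ganglia, fewer cells of a type and less RNA per cell cannot be told apart, and the part of these lists in the channel values was not tested.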

How the data were processed

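RNA of single T11 ganglia was hybridised to Affymetrix rat arrays, 1 for each of 19 rats. A sixth naive rat named in the labels was not analysed here. The authors deposited log2 values per probe set, made with RMA per the submitters' processing notes; depth does not apply, and the number of arrays limits the precision. The 57 control probe sets were left out, and 31042 were tested. Gene names came from the platform annotation: 20826 probe sets had 1 symbol and 436 several, which were not named. All 3 groups entered 1 limma fit (version 3.58.1, R 4.3.3, lmFit and eBayes, 2-sided, Benjamini-Hochberg, threshold 0.05); the fit was tested on simulated data. Group differences of Cacna2d1 were tested with SciPy 1.17.1 over all arrangements of the arrays (792, 3432 or 11628), and correlations with 100000 resamples for 10 or more arrays and over all orders for 7.

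The members and the gene lists were chosen with earlier results of these data known. All members are named; of each list, up to 4 probe sets with the smallest p in a comparison. List counts use each gene's probe set of highest mean. Alternatives were an expression filter, median centring, robust moderation, array weights, fewer samples, 1 probe set per gene, blocks for replicate number and animal code prefix, a 3' minus 5' covariate, and left-out arrays. Replicate numbers did not pair the rats: same-numbered pairs correlated above 0.1 in 3 of 17 cases.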

Additional observations from a re-analysis of the deposited data

Results flagged for a closer look

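Of 51 sets of arrays examined, which are the 3 groups of each of the 17 probe sets, 3 had 1 array far from the rest by Dixon's test, where chance alone gives about 1 in 20, or 2.55. Cacna1a 1386939_a_at was lowest on day 7 replicate 2, at 4.86 with the next array at 5.12. Cacna1b 1371175_a_at was lowest on day 7 replicate 5, at 6.37 with the next at 6.58. Cacna2d3 was lowest on day 14 replicate 3, at 9.50 with the next at 9.95; this ganglion also had the highest Atf3 of all.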

How the results depend on the processing

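Cacna2d1 averaged above naive at day 7, at day 14 and for both together under all 29, 29 and 28 alternatives, by 0.44 to 0.70, 0.45 to 0.86 and 0.45 to 0.75, and passed the adjusted threshold under none; leaving out 1 array gave 0.51 to 0.70, 0.57 to 0.72 and 0.58 to 0.71, with adjusted p from 0.196 to 0.759, 0.0688 to 0.183 and 0.0776 to 0.313. With the replicate block, where the numbers do not pair the rats, it was 0.64 and 0.67 (limma adjusted p = 0.622 and 0.166). Its Atf3 slope passed only with the prefix term (0.26). The other 16 probe sets passed under no alternative (smallest adjusted p 0.207). Between day 14 and day 7, Cacna2d1 was above 0 under 24 of 29 alternatives; leaving out 1 array gave -0.05 to 0.14.

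Counts over all probe sets moved more. The 43 called at day 14 became 76 with array weights, 13 with only the compared groups, 20 with 1 probe set per gene, 9 with the replicate block, 12 without the 3 arrays high in muscle, and 0 with the prefix block or the 3' minus 5' covariate; leaving out 1 array gave 5 (naive replicate 3) to 401 (naive replicate 1), 28 if naive replicate 2 was dropped and 15 if naive replicate 5 was; dropping day 14 replicate 1 gave 65, replicate 2 gave 26, replicate 5 gave 6 and replicate 6 gave 16. The 0 at day 7 became 2 with the covariate and 0 to 2 without 1 array. The 0 between day 14 and day 7 became 1 with the prefix block and 0 to 3 without 1 array. The 6 for both operated groups became 11 with dim probe sets left out, 2 with 1 probe set per gene, 0 with the replicate block, prefix block, covariate or muscle arrays left out, and 3 to 115 without 1 array. The cause was not tested. For both operated groups, a fit of only the compared groups is the main one.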
